A study of Homo sapiens with 12 samples.

Results

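The 28 genes described here make and control cholesterol in the cell, or are targets of the sterol regulatory element-binding proteins (SREBPs). They were chosen by symbol as a list of pathway genes and matched to the count table by Ensembl gene ID. Their measured values were not the rule of choice, but earlier results of these data were known when the list and tests were chosen. All 28 genes of the list were among the 60669 genes of the table, and all 28 were among the 18720 genes kept after low counts were removed. By role they comprised 7 genes of the mevalonate arm (ACAT2, HMGCS1, MVK, PMVK, MVD, IDI1 and FDPS) and 11 genes of the sterol arm (FDFT1, SQLE, LSS, CYP51A1, TM7SF2, MSMO1, NSDHL, HSD17B7, EBP, SC5D and DHCR7). The others were 5 genes of SREBP control (SREBF1, SREBF2, SCAP, INSIG1 and INSIG2), 1 gene of sterol transport (STARD4) and 4 genes of fatty acid and lipid synthesis (FADS1, FADS2, SCD and LPIN1).

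The RNA-seq libraries came from 6 established cell lines in 3 isogenic families, which the study names as ovarian cancer (OC) lines. HeyA8 (sensitive) was paired with HeyA8-MDR (resistant to carboplatin per the study's methods), SK-OV-3 (sensitive) with SK-OV-3-TR (resistant to taxol) and OV2008 (sensitive) with C13 (resistant to cisplatin). Cells of each line received 8 µM quinacrine (QC), an antimalarial drug, or vehicle for 6 h. With a single library per line and condition and 12 libraries in total, the 3 lines of a group stood in for replicates, and a QC effect in a single line has no replicate check. Each resistant line is a single cell line, so the p-values measure the spread between these lines only.

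Cells make cholesterol from acetyl-CoA, first through mevalonate to farnesyl pyrophosphate and then through squalene and lanosterol. SREBPs are membrane-bound transcription factors that are held in the endoplasmic reticulum by INSIG proteins while sterols are plentiful. When membrane sterol falls, SCAP escorts them to the Golgi, where they are cut, and the released part enters the nucleus and switches on the genes of sterol synthesis, with SREBF2 (SREBP2) acting mainly on cholesterol genes and SREBF1 (SREBP1) mainly on fatty acid genes.

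Promoter sequence was looked at first, since SREBPs are known to bind sterol regulatory elements close to boxes for the factor NF-Y. RefSeq promoter windows (250 bases before to 50 bases after a gene's start, GRCh38.p14) were matched for 25 of the 28 genes, and the 250 bases upstream of the start were searched on both strands. The core CACNCCAC was found in 20% of these 25 genes (IDI1, SC5D, SREBF2, INSIG1 and SCD) and in 5.89% of the 27305 genes with a window. The longer form TCACNCCAC, which contains the core, was found in 1 of the 25 genes (SREBF2) and in 1.09% of all genes. The NF-Y box CCAAT was found in 17 of the 25 genes and in 36.997% of all genes. The E-box CACGTG was found in 3 of the 25 genes (SC5D, SCAP and INSIG1) and in 7.73% of all genes. These are matches of letters and not measured binding. The stretches with such matches are printed for 5 of the genes whose levels are described most fully below and for SREBF2 itself, 5′ to 3′ on the gene's own strand, with every match to the core or to CCAAT, on either strand, in capitals.
IDI1 (chr10:1048992-1049021, minus strand): gcgCCAATTGGccgggcgatGTGGCGTGga
SC5D (chr11:121292770-121292799, plus strand): cagtttgcagagcaGTGGCGTGcggagcgg
INSIG1 (chr7:155297663-155297718, plus strand): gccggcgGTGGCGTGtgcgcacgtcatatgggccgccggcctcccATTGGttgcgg
SREBF2 (chr22:41832965-41833010, plus strand): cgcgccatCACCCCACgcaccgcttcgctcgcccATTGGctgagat
MSMO1 (chr4:165327524-165327644, plus strand): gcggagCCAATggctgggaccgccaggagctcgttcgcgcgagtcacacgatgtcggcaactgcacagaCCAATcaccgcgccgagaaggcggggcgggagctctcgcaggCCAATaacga
STARD4 (chr5:111512655-111512700, minus strand): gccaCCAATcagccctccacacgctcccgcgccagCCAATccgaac
The same 8 letters, GTGGCGTG, carry the core in IDI1, SC5D and INSIG1, while the MSMO1 and STARD4 stretches hold only CCAAT boxes.

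Total counts per library ran from 17782556 to 30585059 (median 22289428), and raw counts of the 28 genes ran from 13 (EBP) to 27390 (SCD) in a library. The HeyA8 QC library stood apart from the others. Of the 55 genes that were at least 8-fold higher in HeyA8-MDR than in HeyA8 with vehicle, the median gene in the HeyA8 QC library had moved 35.9% of the way to the HeyA8-MDR level. Of the 105 genes at least 8-fold lower there, the median gene had moved 53.0% of the way. In the other 5 QC libraries these medians lay between -1.27% and 31.3%. ABCB1, the drug efflux pump of multidrug-resistant cells, went from 4.12 to 26.5 CPM (read counts scaled to a library of fixed size) in HeyA8 and stood at 53.8 CPM with vehicle and 54.6 CPM with QC in HeyA8-MDR. The counts and medians of the QC comparisons are therefore given with and without that line, as are the values of single genes that change most without it. PAX8, 1 of the 4 ovarian markers, was between 234 and 478 CPM in the HeyA8 and SK-OV-3 families but between 7.55 and 24.7 CPM in OV2008 and C13. The other ovarian markers did not separate the families in this way. WT1 was at most 4.78 CPM in any library, MUC16 was highest in SK-OV-3 with vehicle (10.9 CPM) and MSLN was highest in C13 with vehicle (16.9 CPM). The 4 squamous markers summed to between 2767 and 14094 CPM in OV2008 and C13, to at most 0.177 CPM in the HeyA8 family and to at most 51.2 CPM in the SK-OV-3 family. The 4 leukocyte markers summed to at most 2.36 CPM in any library. The part that HeyA8's position or these marker differences play in the results was not tested. Whether OV2008 and C13 are of ovarian origin was not tested either.

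Before any drug, the genes differed in level and in how much they varied between lines. On the scale of CPM per kb of exon, the scale on which levels can be compared between genes, the median over the 6 vehicle libraries ran from 0.915 for CYP51A1, the lanosterol demethylase, to 29.8 for SCD, the stearoyl-CoA desaturase. SQLE (squalene epoxidase) at 29.3, FDPS (farnesyl pyrophosphate synthase) at 27.1 and PMVK (phosphomevalonate kinase) at 23.0 CPM per kb followed SCD in that order, with ranges that overlapped one another. SCAP, the SREBP escort, varied least, between 11.6 and 20.6 CPM per kb or 1.77-fold, and PMVK varied 2.09-fold. INSIG1, which holds SREBPs back and is itself an SREBP target, varied 34.1-fold, and EBP, a sterol isomerase, varied 77.9-fold because of its level of 0.466 CPM per kb in SK-OV-3-TR. Exons of other genes cover 74.1% of the exon bases of CYP51A1, 37.7% of those of HMGCS1 and 36.4% of those of EBP. The places of these genes on the scale per kb are therefore uncertain. The plot of levels per kb sets the ranges out for all 28 genes.

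**Figure D1:**
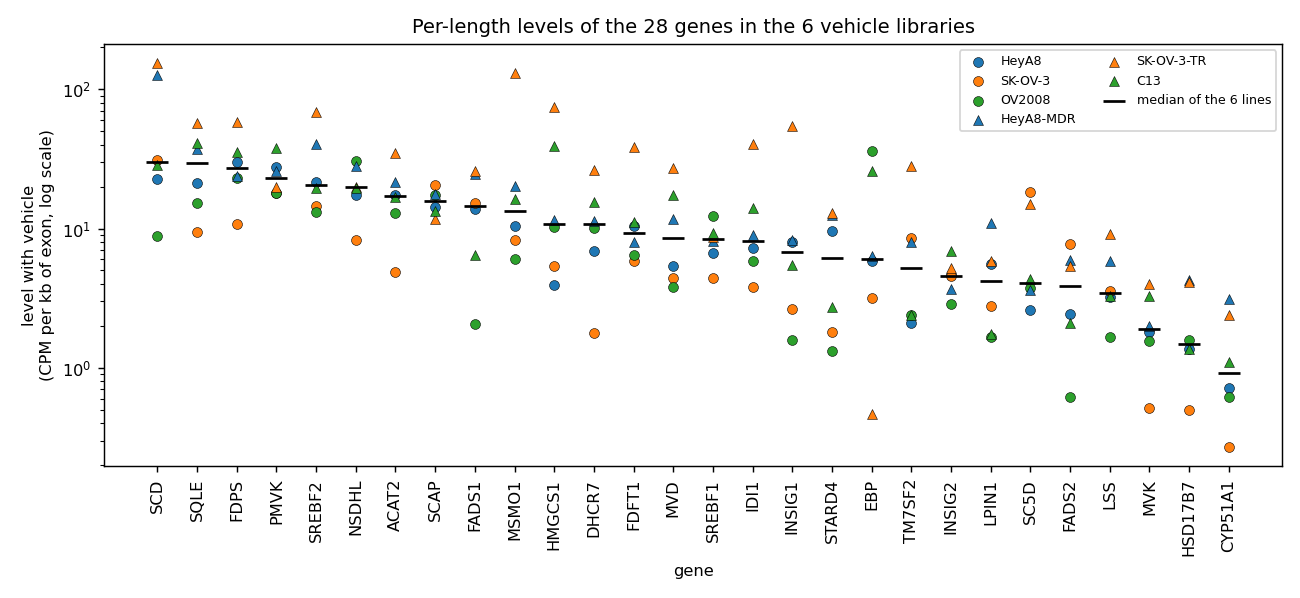
Level of each of the 28 genes with vehicle, in CPM per kb of exon on a log axis, with 1 point per cell line (circles for sensitive lines, triangles for resistant lines, 1 color per family) and a bar at the median of the 6 lines. Genes run from the highest median (SCD, 29.8) to the lowest (CYP51A1, 0.915), and the SK-OV-3-TR point is the highest for MSMO1, HMGCS1, IDI1 and INSIG1 and the lowest for EBP. Exons of other genes cover 74.1% of the exon bases of CYP51A1, so its place is uncertain.

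The first comparison asked how QC changed these genes over the 6 lines, each line against its own vehicle library. Genes of every role group were higher with QC: HMGCS1 and IDI1 of the mevalonate arm, FDFT1, MSMO1 and SC5D of the sterol arm, SREBF2, INSIG1 and INSIG2 of SREBP control, STARD4 of sterol transport, and FADS1, FADS2 and LPIN1 of lipid synthesis. These 12 of 28 genes were higher at an unadjusted p under 0.05, the threshold that the study names, where 7.99% of all 18720 genes were higher. None of the 28 was lower at that threshold, where 7.17% of all genes were. After Benjamini-Hochberg adjustment over all genes 0 of the 28 passed with edgeR's quasi-likelihood test (smallest adjusted p = 0.122), as did 0 of all genes. With DESeq2 9 of the 28 passed at an adjusted p under 0.05 (HMGCS1, IDI1, FDFT1, MSMO1, SC5D, INSIG1, STARD4, FADS1 and FADS2), against 2.77% of all genes. The median log2 change over the 28 genes was 0.35, against 0.0003 over all genes, and 23 of 28 were above 0. With no filter on low counts, edgeR gave 15 of 28 higher at the unadjusted threshold (4.92% of all genes in that fit), the same 12 and TM7SF2, HSD17B7 and SCD, and 9 of 28 past an adjusted p under 0.05 (HMGCS1, IDI1, MSMO1, SC5D, INSIG1, STARD4, FADS1, FADS2 and SCD), against 2% of all genes. All 28 genes pass the filter, so that setting changed which other genes shared the fit (39590 genes rather than 18720) and the scaling computed from them. Why it gave smaller adjusted p-values was not tested. Without HeyA8, 10 of 28 were higher at the unadjusted threshold, against 6.62% of all genes in that fit, with SREBF2 and LPIN1 no longer past it, and the median log2 change was 0.20.

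The direction was also counted line by line. IDI1, FDFT1, MSMO1, SC5D, INSIG1, STARD4 and FADS2, 7 of 28 genes, were higher with QC in all 6 lines, against 4.13% of all genes, and 0 of 28 were lower in all 6, against 4.73%. In the 5 lines other than HeyA8 the genes higher in all of them were the same 7, against 5.96% of all genes. IDI1, FDFT1, MSMO1, SC5D and INSIG1 kept this under all 4 scalings tried. FADS2 lost it with scaling by library size alone, and STARD4 lost it with that scaling and with scaling to RPLP0. Another 8 genes (ACAT2, HMGCS1, NSDHL, SREBF2, INSIG2, FADS1, SCD and LPIN1) were higher in 5 lines, which makes 15 of 28 in 5 or 6 lines against 16.1% of all genes. The 9 genes past the adjusted threshold with DESeq2 also stayed past the unadjusted threshold of edgeR whichever line was left out.

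**Figure D2:**
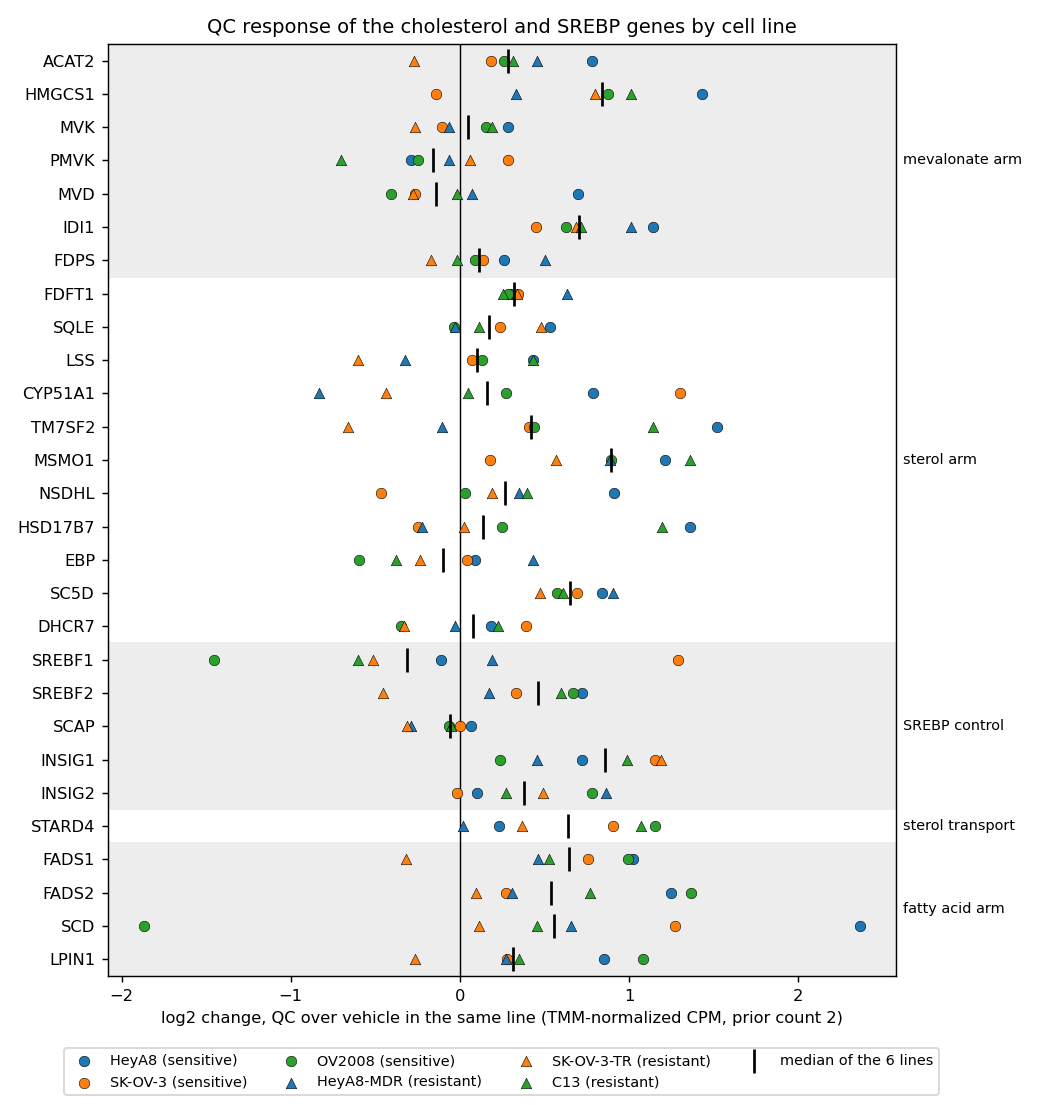
Log2 change with QC over vehicle in each cell line (TMM-normalized CPM with a prior count of 2) for the 28 genes by role, with 1 point per line (circles sensitive, triangles resistant, 1 color per family) and a bar at the median of the 6 lines. All 6 points lie right of 0 for IDI1, FDFT1, MSMO1, SC5D, INSIG1, STARD4 and FADS2, and SCD spreads most, from -1.87 in OV2008 to 2.36 in HeyA8.

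In the mevalonate arm, 2 of 7 genes passed the unadjusted threshold upward and 0 downward. IDI1, which isomerizes isopentenyl pyrophosphate, went from 31.1 to 68.7 CPM in HeyA8, from 16.3 to 22.3 in SK-OV-3 and from 24.9 to 38.6 in OV2008. Its CPM went from 38.6 to 77.9 in HeyA8-MDR, from 173 to 278 in SK-OV-3-TR and from 60.4 to 99.2 in C13. The level with QC was above the vehicle level in every line, while the levels of different lines overlapped between treatments. The log2 change of IDI1 over the 6 lines was 0.78 ± 0.121 (SE, n = 6 lines), or 1.71-fold (edgeR adjusted p = 0.122, DESeq2 adjusted p = 2.4e-05). In the annotation 3 pseudogenes bear the name of IDI1, so its count could share reads with them. The same holds for FDPS (8 pseudogenes), CYP51A1 (3), HSD17B7 (3) and SCD (1).

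HMGCS1, the HMG-CoA synthase at the head of the pathway, went from 26.0 to 70.2 CPM in HeyA8, from 35.4 to 32.1 in SK-OV-3 and from 67.8 to 124 in OV2008. In the resistant lines it went from 76.2 to 95.8 CPM in HeyA8-MDR, from 492 to 856 in SK-OV-3-TR and from 257 to 519 in C13. It was thus higher with QC in every line but SK-OV-3. Its log2 change over the 6 lines was 0.72 ± 0.177 (SE, n = 6), or 1.65-fold (edgeR adjusted p = 0.152), and it was 0.58 ± 0.170 (n = 5) without HeyA8. Genes on the other strand cover 37.7% of its exon bases, and whether counting used strand is not given in the sources used here.

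The other 5 genes of this arm did not pass. The log2 change over the 6 lines was 0.29 ± 0.138 for ACAT2 (acetyl-CoA acetyltransferase), 0.13 ± 0.116 for FDPS and 0.04 ± 0.135 for MVK (mevalonate kinase). It was -0.03 ± 0.147 for MVD (mevalonate diphosphate decarboxylase) and -0.16 ± 0.148 for PMVK (each SE, n = 6). Their changes in single lines ran from -0.70 (PMVK in C13) to 0.78 (ACAT2 in HeyA8) on the log2 scale.

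In the sterol arm, 3 of 11 genes passed the unadjusted threshold upward and 0 downward. MSMO1, a methylsterol oxidase that strips methyl groups from lanosterol derivatives, had the largest log2 change of the 28 genes. It went from 29.7 to 69.0 CPM in HeyA8, from 23.8 to 26.9 in SK-OV-3 and from 17.3 to 32.2 in OV2008. It went from 58.0 to 107 CPM in HeyA8-MDR, from 375 to 555 in SK-OV-3-TR and from 46.8 to 120.2 in C13. All 6 lines were higher with QC, by least in SK-OV-3, and the log2 change over them was 0.85 ± 0.152 (SE, n = 6), or 1.81-fold (edgeR adjusted p = 0.122).

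SC5D, the lathosterol desaturase, went from 26.1 to 46.8 CPM in HeyA8, from 184 to 296 in SK-OV-3 and from 37.3 to 55.5 in OV2008. It went from 36.2 to 67.7 CPM in HeyA8-MDR, from 149.9 to 208 in SK-OV-3-TR and from 43.9 to 66.9 in C13. Its level with QC was above vehicle in each line, by a log2 change between 0.47 and 0.90, and the log2 change over the lines was 0.68 ± 0.109 (SE, n = 6), or 1.60-fold (edgeR adjusted p = 0.122).

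FDFT1, squalene synthase and the first step committed to sterols, went from 53.4 to 65.8 CPM in HeyA8, from 29.8 to 37.8 in SK-OV-3 and from 32.9 to 40.1 in OV2008. It went from 40.4 to 62.8 CPM in HeyA8-MDR, from 194 to 246 in SK-OV-3-TR and from 56.7 to 67.6 in C13. Every line was higher with QC, HeyA8-MDR most. Its log2 change over the lines was 0.36 ± 0.106 (SE, n = 6), or 1.28-fold (edgeR adjusted p = 0.177).

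The remaining 8 sterol genes did not pass. The log2 change over the 6 lines was 0.44 ± 0.243 for TM7SF2 (sterol C14-reductase), 0.41 ± 0.238 for HSD17B7 (a keto-reductase of sterols), 0.24 ± 0.158 for NSDHL (a sterol dehydrogenase) and 0.22 ± 0.119 for SQLE. Without HeyA8 it was 0.23 for TM7SF2 and 0.21 for HSD17B7. It was 0.15 ± 0.276 over the 6 lines for CYP51A1 (0.02 without HeyA8), 0.02 ± 0.156 for LSS (lanosterol synthase), 0.01 ± 0.128 for DHCR7 (7-dehydrocholesterol reductase) and -0.11 ± 0.163 for EBP (each SE, n = 6). TM7SF2 and HSD17B7 were uneven between lines. TM7SF2 had a log2 change of 1.52 in HeyA8 and 1.14 in C13 but -0.66 in SK-OV-3-TR, and HSD17B7 had 1.36 in HeyA8 and 1.20 in C13 but -0.25 in SK-OV-3. CYP51A1 never exceeded 12.9 CPM, and exons of other genes cover 74.1% of its exon bases, so its count is uncertain. Exons of a gene on the same strand cover 36.4% of the exon bases of EBP.

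Among the genes of SREBP control, 3 of 5 passed the unadjusted threshold upward and 0 downward. INSIG1 went from 29.1 to 48.1 CPM in HeyA8, from 9.73 to 21.7 in SK-OV-3 and from 5.82 to 6.87 in OV2008. It went from 30.04 to 41.2 CPM in HeyA8-MDR, from 198 to 453 in SK-OV-3-TR and from 20.1 to 39.9 in C13. Both lines of the SK-OV-3 family more than doubled, and OV2008 moved least. The log2 change of INSIG1 over the lines was 0.81 ± 0.144 (SE, n = 6), or 1.75-fold (edgeR adjusted p = 0.122).

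INSIG2, its paralog with the same retaining role, went from 18.3 to 19.6 CPM in HeyA8, from 18.0 to 17.8 in SK-OV-3 and from 11.4 to 19.7 in OV2008. It went from 14.4 to 26.3 CPM in HeyA8-MDR, from 20.6 to 28.9 in SK-OV-3-TR and from 27.1 to 32.8 in C13. SK-OV-3 was the line without a higher level. The log2 change over the lines was 0.41 ± 0.153 (SE, n = 6; edgeR adjusted p = 0.234), and it was no longer past the unadjusted threshold without HeyA8-MDR (0.31) or without OV2008 (0.34).

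SREBF2 went from 174 to 287 CPM in HeyA8, from 117 to 147 in SK-OV-3 and from 106 to 168 in OV2008. It went from 328 to 369 CPM in HeyA8-MDR, from 551 to 402 in SK-OV-3-TR and from 158 to 239 in C13. SK-OV-3-TR, the line with the highest vehicle level, was the one where it was lower. The log2 change over the lines was 0.34 ± 0.154 (SE, n = 6; edgeR adjusted p = 0.322). It no longer passed the unadjusted threshold when HeyA8 (0.26), HeyA8-MDR (0.36), SK-OV-3 (0.34), OV2008 (0.28) or C13 (0.28) was left out, or with scaling by library size alone (0.33).

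SREBF1 and SCAP did not pass. Without SK-OV-3, SREBF1 was lower at the unadjusted threshold, where 7.63% of all genes in that fit were lower. The log2 change of SREBF1 was -0.21 ± 0.266 (SE, n = 6) over the lines and ran from -1.46 in OV2008, where its level went from 102 to 37.1 CPM, to 1.29 in SK-OV-3, where it went from 36.5 to 89.3 CPM. The log2 change of SCAP was -0.11 ± 0.107 (SE, n = 6), and it stayed between -0.31 and 0.07 in each line.

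STARD4, which carries sterols between membranes in the cytosol, went from 54.5 to 63.9 CPM in HeyA8, from 10.2 to 19.2 in SK-OV-3 and from 7.50 to 16.8 in OV2008. It went from 71.6 to 72.6 CPM in HeyA8-MDR, from 73.1 to 94.3 in SK-OV-3-TR and from 15.6 to 32.8 in C13. The OV2008 family roughly doubled while HeyA8-MDR hardly moved. Its log2 change over the lines was 0.61 ± 0.166 (SE, n = 6), or 1.53-fold (edgeR adjusted p = 0.169).

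In lipid synthesis, 3 of 4 genes passed the unadjusted threshold upward and 0 downward. FADS2, the delta-6 fatty acid desaturase, went from 25.5 to 60.8 CPM in HeyA8, from 82.3 to 99.5 in SK-OV-3 and from 6.55 to 17.0 in OV2008. It went from 62.8 to 77.8 CPM in HeyA8-MDR, from 56.5 to 60.3 in SK-OV-3-TR and from 22.2 to 37.8 in C13. Its log2 change over the lines was 0.66 ± 0.176 (SE, n = 6), or 1.58-fold (edgeR adjusted p = 0.165), and the steepest changes were in HeyA8 and OV2008. Without HeyA8 it was 0.54 ± 0.177 (n = 5).

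FADS1, the delta-5 desaturase, which neighbors FADS2 on the opposite strand, went from 142 to 288 CPM in HeyA8, from 155 to 262 in SK-OV-3 and from 21.0 to 41.8 in OV2008. It went from 253 to 348 CPM in HeyA8-MDR, from 264 to 212 in SK-OV-3-TR and from 65.9 to 95.1 in C13. Only SK-OV-3-TR of the 6 lines was lower with QC. The log2 change over the lines was 0.57 ± 0.165 (SE, n = 6), or 1.49-fold (edgeR adjusted p = 0.175), and it was 0.48 ± 0.172 (n = 5) without HeyA8.

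LPIN1, a phosphatidate phosphatase that is an SREBP target, went from 66.2 to 119.8 CPM in HeyA8, from 32.9 to 40.0 in SK-OV-3 and from 19.9 to 42.1 in OV2008. It went from 129.9 to 157 CPM in HeyA8-MDR, from 68.8 to 57.2 in SK-OV-3-TR and from 20.7 to 26.4 in C13. Again SK-OV-3-TR alone was lower. The log2 change over the lines was 0.43 ± 0.162 (SE, n = 6; edgeR adjusted p = 0.246), and it was no longer past the unadjusted threshold without HeyA8 (0.34) or without OV2008 (0.30).

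SCD did not pass, with a log2 change of 0.55 ± 0.392 (SE, n = 6) over the lines (edgeR adjusted p = 0.532), although it passed with no filter on low counts (edgeR adjusted p = 0.0118). The counts of SCD, 286 to 27390 in a library, are far above that filter, so the fits differed in the other genes they held and in the scaling computed from them. Without HeyA8 the log2 change of SCD was 0.19 ± 0.333 (n = 5). It went from 119 to 612 CPM in HeyA8, from 162 to 392 in SK-OV-3 and from 46.3 to 12.6 in OV2008. It went from 661 to 1041 CPM in HeyA8-MDR, from 806 to 873 in SK-OV-3-TR and from 151 to 207 in C13. OV2008 was the one line where SCD was lower with QC.

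**Figure D3:**
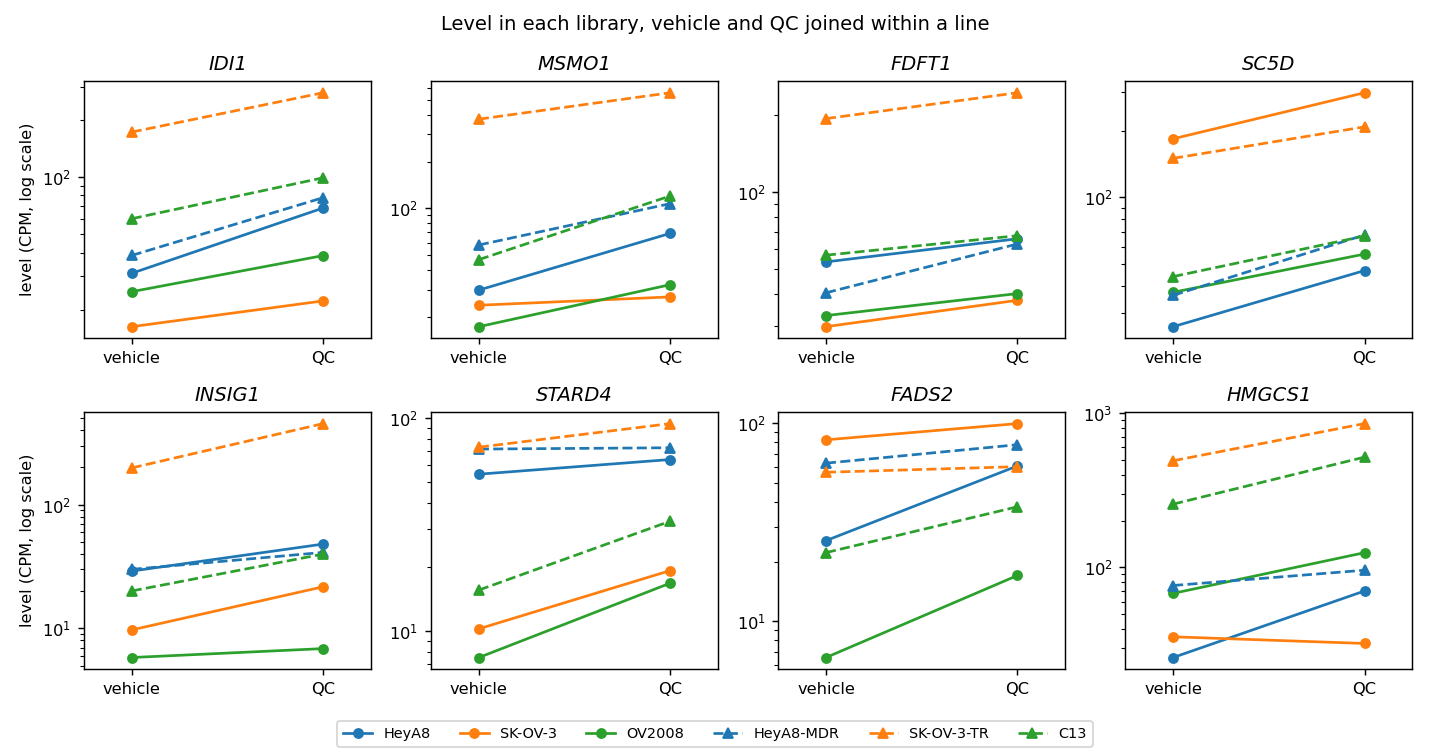
Level in CPM on a log axis in the vehicle and QC library of each line, joined by a line (circles and solid lines for sensitive lines, triangles and dashed lines for resistant lines, 1 color per family), with an axis of its own for each gene. Every line slopes up for the first 7 genes, and HMGCS1 slopes up in all lines but SK-OV-3 (35.4 to 32.1 CPM).

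The second comparison asked whether sensitive and resistant lines responded differently. In the sensitive lines 12 of 28 genes were higher at the unadjusted threshold (HMGCS1, IDI1, CYP51A1, TM7SF2, MSMO1, SC5D, SREBF2, INSIG1, STARD4, FADS1, FADS2 and LPIN1; 3.55% of all genes) and 0 were lower (3.04%), with a median log2 change of 0.46. In the resistant lines 7 of 28 were higher (HMGCS1, IDI1, FDFT1, MSMO1, SC5D, INSIG1 and INSIG2; 3.43% of all genes) and 0 were lower (2.59%), with a median log2 change of 0.18. After adjustment 0 genes of the list passed with edgeR in either group, as did 0 of all genes. DESeq2 passed 1 gene of the list in the sensitive group (FADS1, adjusted p = 0.0252), against 0.166% of all genes. For the resistant group DESeq2 passed 0 of the list and 0 of all genes, so the 0 there does not set the list apart. With no filter on low counts, edgeR passed 2 after adjustment in sensitive lines (FADS1 and FADS2) and 1 in resistant lines (MSMO1). Of all 39590 genes in that fit 195 and 35 passed. Without HeyA8, 7 of 28 were higher in the remaining 2 sensitive lines at the unadjusted threshold, against 2.08% of all genes in that fit, with a median log2 change of 0.27. HMGCS1, CYP51A1, TM7SF2, MSMO1 and SREBF2 were no longer past it there. In the resistant lines the median log2 change was 0.40 without SK-OV-3-TR (0.44 in the sensitive lines in that fit), with 5 of 28 genes higher against 4.03% of all genes. It was 0.11 without C13, with 6 of 28 genes higher against 4.11%. HMGCS1 was past the threshold in neither of these, and FDFT1 and INSIG2 were not past it without SK-OV-3-TR. IDI1, SC5D, FADS1, FADS2 and LPIN1 stayed past it in the sensitive lines whichever of the 6 lines was left out, as did IDI1, MSMO1, SC5D and INSIG1 in the resistant lines.

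The difference itself, resistant minus sensitive, was tested as a contrast. At the unadjusted threshold 2 of 28 genes had a lower change in resistant lines, against 0.604% of all genes, and 0 had a higher one. After adjustment 0 of 28 differed with edgeR (adjusted p = 0.9997 for each) or DESeq2, against 0.00534% of all genes with DESeq2. FADS1 had a log2 change of 0.92 ± 0.201 (SE, n = 3 lines) in sensitive and 0.22 ± 0.200 (n = 3) in resistant lines, a difference of -0.70 ± 0.283. CYP51A1 had 0.80 ± 0.339 (SE, n = 3) in sensitive and -0.41 ± 0.319 (n = 3) in resistant lines, a difference of -1.22 ± 0.466, at the low levels given above. Without SK-OV-3-TR neither gene was past the unadjusted threshold, with a difference of -0.40 for FADS1 and -1.17 for CYP51A1. FADS1 also lost it without HeyA8 (-0.65) or OV2008 (-0.67), and CYP51A1 without HeyA8-MDR (-1.01) or SK-OV-3 (-0.95). For the 5 genes higher in all 6 lines under every scaling, the difference lay between -0.04 ± 0.242 (SC5D) and 0.17 ± 0.321 (MSMO1) on the log2 scale (SE). These 5 genes were picked from the same changes for being higher in every line, so their range is not a test of equal response.

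The lines were also set side by side. The median log2 change over the 28 genes was 0.72 in HeyA8, 0.37 in C13, 0.29 in HeyA8-MDR, 0.28 in SK-OV-3, 0.25 in OV2008 and -0.07 in SK-OV-3-TR. At least 1.5-fold higher with QC were 16 of 28 genes in HeyA8 (19.3% of all genes), 10 in C13 (17.4%), 9 in OV2008 (18.6%), 7 in SK-OV-3 (9.07%), 6 in HeyA8-MDR (16.4%) and 3 in SK-OV-3-TR (10.2%). At least 1.5-fold lower were 3 genes in OV2008 (16.3% of all genes), 2 in C13 (12.1%), 2 in SK-OV-3-TR (14.4%), 1 in HeyA8-MDR (19.3%) and 0 in HeyA8 (16.8%) and SK-OV-3 (10.2%). The 3 in SK-OV-3-TR were HMGCS1, IDI1 and INSIG1, named after their values were seen. In HeyA8, the level with QC lay between the vehicle levels of HeyA8 and HeyA8-MDR for 15 of the 28 genes, beyond the HeyA8-MDR level for 9 and on the other side for 4. The shares of all genes with these patterns were not counted, so the counts do not set the list apart from other genes.

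The third comparison asked how resistant lines differed from their sensitive counterparts before the drug, with the family as a block. These vehicle libraries are also the baseline of the QC changes above, so the comparisons share samples and their values stand side by side only. With vehicle, 11 of 28 genes were higher in resistant lines at the unadjusted threshold (HMGCS1, MVD, IDI1, SQLE, LSS, CYP51A1, MSMO1, SREBF2, STARD4, FADS1 and SCD), against 1.95% of all genes, and 0 were lower, against 1.75%. The median log2 difference over the 28 genes was 1.18, against 0.03 over all genes. After adjustment 0 of 28 passed with edgeR (adjusted p = 0.994 for each), and with DESeq2 3 passed (HMGCS1, MVD and SCD), against 0.251% of all genes. With no filter on low counts 6 passed with edgeR, these 3 and SQLE, MSMO1 and INSIG1, against 146 of all 36276 genes in that fit. Higher in the resistant line of all 3 families were 17 of 28 genes, against 13.1% of all genes, and 0 were lower in all 3, against 11.5%. Scaling to RPLP0 instead moved the median of all genes by -0.39 on the log2 scale. It left 6 genes higher at the unadjusted threshold (0.743% of all genes), 11 higher in all 3 families (4.80% of all genes) and 2 lower in all 3.

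The 3 genes past the adjusted threshold with DESeq2 were higher in the resistant line of each family, in the same vehicle libraries that the test used. SCD stood at 119, 162 and 46.3 CPM in HeyA8, SK-OV-3 and OV2008 with vehicle and at 661 CPM in HeyA8-MDR, 806 CPM in SK-OV-3-TR and 151 CPM in C13. SCD thus overlapped between the groups, with C13 below SK-OV-3. Its log2 difference was 2.17 ± 0.304 (SE, n = 3 families), or 4.50-fold, and it was 2.48, 2.31 and 1.70 in the 3 families. MVD stood at 25.5, 20.7 and 17.9 CPM in the sensitive lines and at 55.6, 129 and 82.0 CPM in the resistant lines, without overlap. Its log2 difference was 1.99 ± 0.407 (SE, n = 3), or 3.98-fold. HMGCS1, with the levels given above, differed by 2.40 ± 0.525 (SE, n = 3) on the log2 scale, or 5.28-fold. Of these 3 genes only HMGCS1 was also past the unadjusted threshold with QC, and MVD had a log2 change with QC of -0.03.

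The SK-OV-3 family carried the largest differences. There 16 of 28 genes were at least 4-fold higher in SK-OV-3-TR than in SK-OV-3 with vehicle, against 8.11% of all genes. In the HeyA8 family 2 were (CYP51A1 and SCD, 4.78% of all genes) and in the OV2008 family 1 was (MVD, 3.24%). The median log2 difference was 2.36 in the SK-OV-3 family, 0.90 in the OV2008 family and 0.70 in the HeyA8 family. INSIG1 stood at 198 CPM in SK-OV-3-TR and 9.73 CPM in SK-OV-3, a log2 difference of 4.34, while it was 30.04 and 29.1 CPM in HeyA8-MDR and HeyA8. MSMO1 (log2 difference 3.98), DHCR7 (3.86) and HMGCS1 (3.79) followed in the SK-OV-3 family. EBP ran the other way there, at 0.824 CPM in SK-OV-3-TR and 5.64 CPM in SK-OV-3, and SCAP, FADS2 and SC5D were lower too, with log2 differences of -0.82, -0.54 and -0.29. Without the SK-OV-3 family, 7 of 28 genes were higher at the unadjusted threshold (1.42% of all genes), with a median log2 difference of 0.74. They were 6 of the 11 named above (HMGCS1, MVD, SQLE, MSMO1, FADS1 and SCD) and FADS2. HMGCS1, MVD, SQLE, MSMO1 and SCD were past it whichever family was left out.

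**Figure D4:**
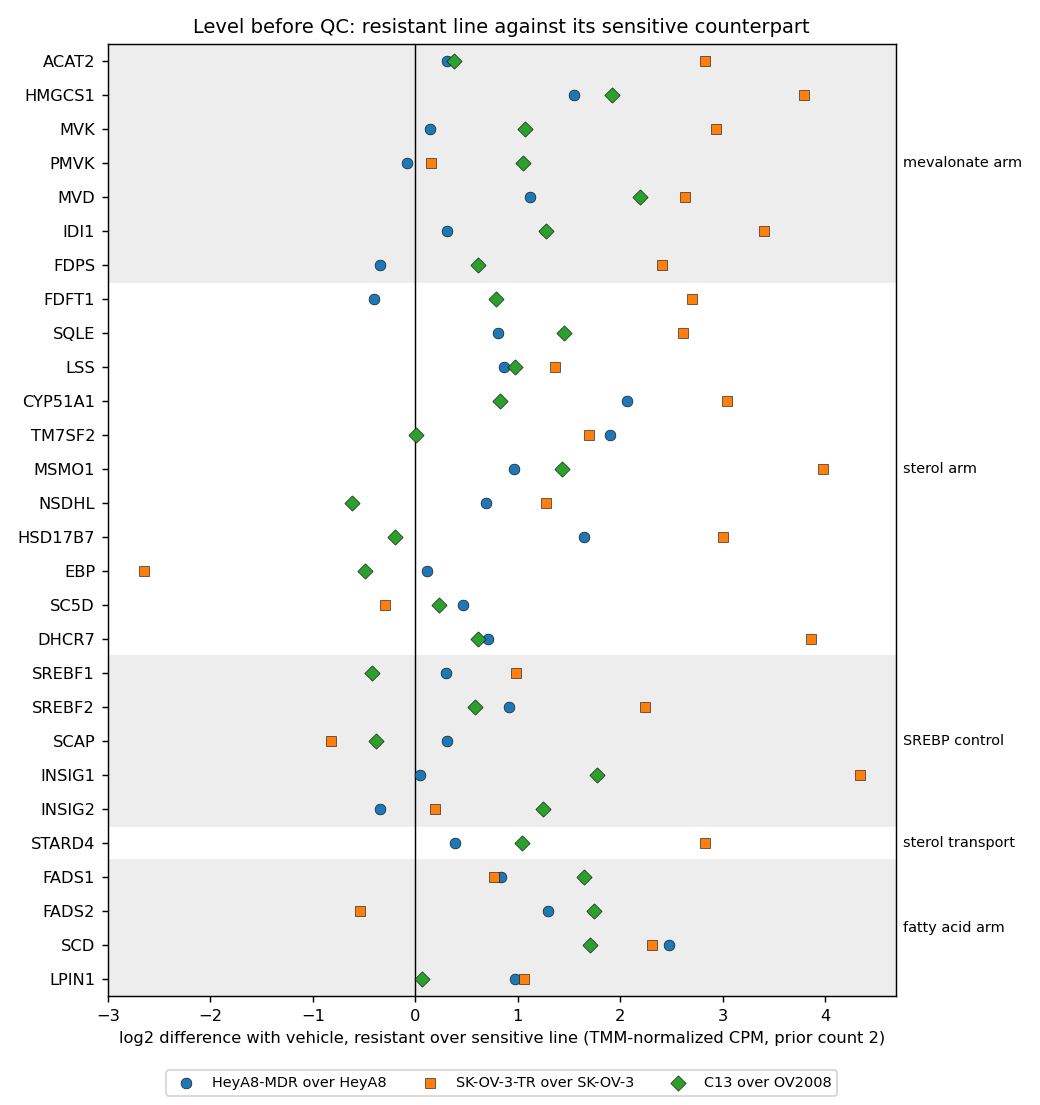
Log2 difference between the resistant and the sensitive line of each family with vehicle (TMM-normalized CPM with a prior count of 2) for the 28 genes by role, with 1 point per family. Squares for SK-OV-3-TR over SK-OV-3 lie farthest right for most genes of the mevalonate and sterol arms. The square of INSIG1 lies at 4.34 and that of EBP at -2.65.

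By role, for the groups of more than 1 gene, the mevalonate arm had with vehicle a median log2 difference of 1.36 over its 7 genes, the sterol arm 1.23 over its 11 genes, the lipid genes 0.97 over 4 and SREBP control 0.36 over 5. With QC over the 6 lines the order was another, with median log2 changes of 0.56 for the lipid genes, 0.34 for SREBP control, 0.24 for the sterol arm and 0.13 for the mevalonate arm. Without HeyA8 these were 0.41, 0.26, 0.15 and 0.11. Neither order was tested. SREBF2, whose vehicle level was 551 CPM in SK-OV-3-TR and 117 CPM in SK-OV-3, had a log2 difference of 1.24 ± 0.412 (SE, n = 3 families), and SREBF1 had 0.29 ± 0.374.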

How the data were processed

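RNA was sequenced from 12 libraries of 6 cell lines. The authors deposited raw read counts per gene, without normalization. The submitters' processing notes name STAR 2.7.3a, HTSeq 0.6.1p1 and GRCh38.p13, while the paper's methods name TopHat and HTSeq on hg19, and this difference could not be settled. The annotation and strand setting are not given in the sources used here. Pairing follows from the cell line that both libraries share, and their deviations from their group means correlated at between 0.893 and 0.929 across genes.

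Counts were analyzed in R 4.3.3 with edgeR 4.0.16. Of 60669 gene IDs, 58620 were paired with a symbol, and these hold 99.87% of the counts. The filter filterByExpr on the 4 conditions (minimum count 10, minimum total 15) kept 18720 genes, and TMM gave the scaling. Quasi-likelihood fits had the cell line as a block and 1 QC term, or 1 QC term per resistance group, and a fit of the 6 vehicle libraries had the family as a block and a resistance term. Residual degrees of freedom were 5, 4 and 2. Tests were two-sided, with Benjamini-Hochberg adjustment over all genes tested. Changes in single lines are log2 ratios of normalized CPM with a prior count of 2. The methods were tested on simulated data. Exon lengths and overlaps came from GENCODE 44 lifted to GRCh37, matched by ID.

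Alternatives were no filter or a minimum of 10 counts in each library, no block, DESeq2 1.42.0, other scalings (library size, DESeq2 size factors or RPLP0), a fit of the sensitive or the resistant libraries alone, a prior count of 0.5 and leaving out each line or family. The 28 genes, the list of 27 other pathway genes, the markers and the tests were chosen with earlier results of these data known. Every gene of the list was to be named, with the value in every library for those past the unadjusted threshold over the 6 lines, those moving 1 way in all 6 lines and the 2 smallest p per role, and of the other pathway genes the 2 smallest p in each direction. Values in every library of SCD were added after they had been seen. Some genes this rule names are not reported here. Plots were drawn with matplotlib 3.10.9.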

Additional observations from a re-analysis of the deposited data

Results flagged for a closer look

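FDFT1 (squalene synthase) had a log2 change with QC of 0.63 in HeyA8-MDR, far from the other 5 lines, which lay between 0.25 and 0.34. The gap was 0.767 of the whole range, above Dixon's critical value for 6 values. Chance alone gives such a gap in about 1 of 20 groups, and FDFT1 was the only one of the 28 genes with one.

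The change with QC differed between resistant and sensitive lines at an unadjusted p under 0.05 for CYP51A1 (a log2 difference of -1.22) and FADS1 (-0.70). Both failed the adjustment over all genes, and both lost the unadjusted threshold without SK-OV-3-TR, CYP51A1 also without HeyA8-MDR or SK-OV-3 and FADS1 also without HeyA8 or OV2008, with differences between -1.47 and -0.95 for CYP51A1 and between -0.86 and -0.40 for FADS1.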

How the results depend on the processing

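Dropping the cell line as a block ignores that both libraries of a line come from the same cells. Then 0 of the 28 genes passed the unadjusted threshold over the 6 lines, in sensitive lines, in resistant lines and for the difference. Over all genes 108 rather than 2839 passed over the 6 lines, and 6 rather than 219 for the difference. In sensitive lines 30 rather than 1234 passed, and in resistant lines 23 rather than 1127. The block of the vehicle fit is the family. Without the family as a block 8 of the 28 were higher with vehicle, and over all genes 124 rather than 693 passed. With no filter 4 genes passed for the difference and 19 with vehicle. With scaling to RPLP0, 6 passed with vehicle, and the median log2 change was 0.73 in sensitive lines and 0.57 in SK-OV-3, 0.73 in OV2008 and 0.85 in C13. That scaling moved the median of all genes by 0.18 over the 6 lines, 0.29 in sensitive lines and 0.08 in resistant lines, by -0.20 for the difference and by -0.39 with vehicle, and it raised the count of all genes to 2191 in sensitive lines and 1498 with vehicle. With no filter the counts of all genes at the unadjusted threshold were 1918 of 39590 in sensitive lines, 501 of 39590 for the difference and 1583 of 36276 with vehicle. DESeq2 gave 1137 of 18720 with vehicle. Leaving out 1 line gave 10 to 14 genes over the 6 lines, 7 (without HeyA8) to 12 in sensitive lines, 5 to 8 in resistant lines and 0 (without SK-OV-3-TR) to 6 (without C13) for the difference, which was 1 without HeyA8 or HeyA8-MDR. Of all genes in those fits, 5.23% to 7.88% were higher over the lines, 2.08% to 5.26% in sensitive lines and 1.23% to 4.11% in resistant lines. For the difference, 0.399% (without SK-OV-3-TR) to 1.42% (without C13) of all genes had a lower change. Without SK-OV-3, 1 of the genes counted was lower with QC, SREBF1, both over the lines and in sensitive lines. Of all genes 7.63% and 4.8% were lower in those comparisons. Leaving out 1 family gave 7 (without SK-OV-3) to 15 (without HeyA8) with vehicle, where 1.42% and 2.29% of all genes were higher. Counts of all genes past an adjusted p under 0.05 over the 6 lines were 0 with edgeR, 518 with DESeq2 and 791 with no filter, and with vehicle 0, 47 and 146. In sensitive lines they were 0, 31 and 195, in resistant lines 0, 0 and 35, and for the difference 0, 1 and 5. Of 558 values of single genes past the unadjusted threshold, under these alternatives, 470 stayed past it, 88 did not and 0 changed sign. With 1 library per line and treatment and 2 residual degrees of freedom in the vehicle fit, the number of lines limits the precision of every test here, and low counts add to this for EBP (down to 13 in a library) and CYP51A1 (down to 27).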

Other observations

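Of 27 other genes of the sterol and SREBP pathway, 5 were higher and 5 were lower with QC over the 6 lines at the unadjusted threshold (7.99% and 7.17% of all genes), with a median log2 change of -0.04. NPC2, which binds cholesterol in the lysosome, had a log2 change of 0.39 ± 0.111 (SE, n = 6 lines; edgeR adjusted p = 0.169). ERLIN2, a protein of the endoplasmic reticulum membrane that takes part in the sterol-regulated degradation of its clients, had -0.33 ± 0.104 (SE, n = 6; edgeR adjusted p = 0.189). Chosen after their values were seen, NPC1, the lysosomal partner of NPC2, had 0.36 ± 0.121 (SE, n = 6; edgeR adjusted p = 0.207), and FASN (fatty acid synthase) had -0.34 ± 0.137 (SE, n = 6; edgeR adjusted p = 0.273), in contrast to the desaturase genes FADS1 and FADS2 above. With DESeq2, 3 of the 27 passed an adjusted p under 0.05, among them NPC2 (0.0272) and ERLIN2 (0.0345).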
